A study of Homo sapiens with 6 samples.

Results

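Transcript levels of 37 genes that carry pyruvate into the mitochondrion and around the citric acid cycle were followed in NCI-H69 cells, an established human small cell lung cancer line, labelled WT. The genes were taken from a list of enzymes and carriers, and each of the 37 was found once among the 60671 genes of the count files. There were 3 libraries of cells given the vehicle DMSO for 48 h and 3 of cells given GNF5, an allosteric inhibitor of the ABL kinases, for the same time. The labels state the GNF5 dose as 20 µM for each sample, while their treatment text gives the same figure in mM, and this was not resolved. Replicates are numbered in the labels without a statement that they were separate cultures, so the p-values measure the spread between these libraries, which may be technical.

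Pyruvate made by glycolysis enters the mitochondrion through the carrier MPC1-MPC2 and is turned into acetyl-CoA by the pyruvate dehydrogenase complex. The PDK kinases switch that complex off by phosphorylation and the PDP phosphatases switch it on again, while pyruvate carboxylase sends pyruvate to oxaloacetate instead. Citrate synthase joins acetyl-CoA to oxaloacetate, and the cycle then oxidises the product stepwise back to oxaloacetate. Malic enzymes return malate to pyruvate, and the carrier SLC25A1 exports citrate for lipid synthesis.

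The libraries held between 46148701 and 60697602 counts, and the 37 genes together took 0.324% to 0.335% of them with DMSO and 0.299% to 0.303% with GNF5. Levels below are CPM (counts scaled to the size of the library, after TMM normalisation), fold changes are log2 of GNF5 against DMSO ± SE, and a gene is said to have risen or fallen when edgeR's quasi-likelihood test gave an adjusted p under 0.05 over all genes tested. Neuroendocrine markers were present: all 8 of the list were tested, and they summed to 3257 to 3354 CPM in the DMSO libraries and 3457 to 3592 in the GNF5 libraries. Of the 8, 2 rose and 3 fell: DDC (-1.26 ± 0.037) and GRP (-1.24 ± 0.056) fell and NCAM1 rose (0.59 ± 0.032). Named after their values were seen, CHGB rose (0.32 ± 0.033) and SYP fell (-0.27 ± 0.038). Of 22 markers of other cells (fibroblast, leukocyte, lung epithelial, erythroid), 7 had 0 counts in all 6 libraries. Their summed levels in single libraries were 120.2 to 125.8 CPM with DMSO and 64.8 to 72.0 with GNF5 for the fibroblast list, nearly all of it COL1A2 (119.2 ± 2.6 and 63.5 ± 3.6 CPM, SD, n = 3) while COL1A1 rose from 2.89 ± 0.16 to 5.28 ± 0.36 CPM (0.87 ± 0.115) and COL3A1 had 0 counts. The lung epithelial list summed to 8.39 to 9.03 CPM with DMSO and 3.24 to 3.78 with GNF5 (SFTPB at 0). The leukocyte list summed to 1.56 to 1.80 CPM with DMSO and 0.17 to 0.573 with GNF5 (CD3E and TYROBP at 0). Named after their values were seen, FOXJ1 and AGER made up most of the lung epithelial sum and PTPRC most of the leukocyte sum. FOXJ1 fell from a mean of 4.81 to 0.601 CPM and PTPRC from 1.63 to 0.35 CPM. AGER did not pass (2.9 and 2.5 CPM). The erythroid list summed to at most 0.159 CPM in a DMSO library, with HBB and ALAS2 at 0. The part of these shifts in the results below was not tested. In a bulk sample, fewer cells with a transcript and less of it per cell cannot be told apart.

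The largest of the 37 changes were falls: the kinases PDK1 and PDK3, which hold pyruvate dehydrogenase inactive, and the citrate exporter SLC25A1 fell by slightly more than 2-fold each. Most genes listed for the steps from citrate synthase to malate dehydrogenase stayed within 0.25 of no change on the log2 scale. MPC1 and MPC2, IDH1 and IDH2, and SDHB and SDHC moved in opposite directions. Of the 37 genes, all of which passed the expression filter, 10 rose and 15 fell, so 67.6% were called against 61.6% of all 20734 genes tested. Rises made up 27.0% of the 37 against 31.0% of all genes, and falls 40.5% against 30.7%. The share called is thus near the background. Calls of at least 2-fold were 0 higher (4.95% of all genes) and 3 lower (6.69% of all genes), or 8.11% of the 37 against 11.6% of all genes in either direction. The median log2 fold change was -0.05 for the 37 genes and 0.006 for all genes, and the median absolute change was 0.25 against 0.34.

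**Figure D1:**
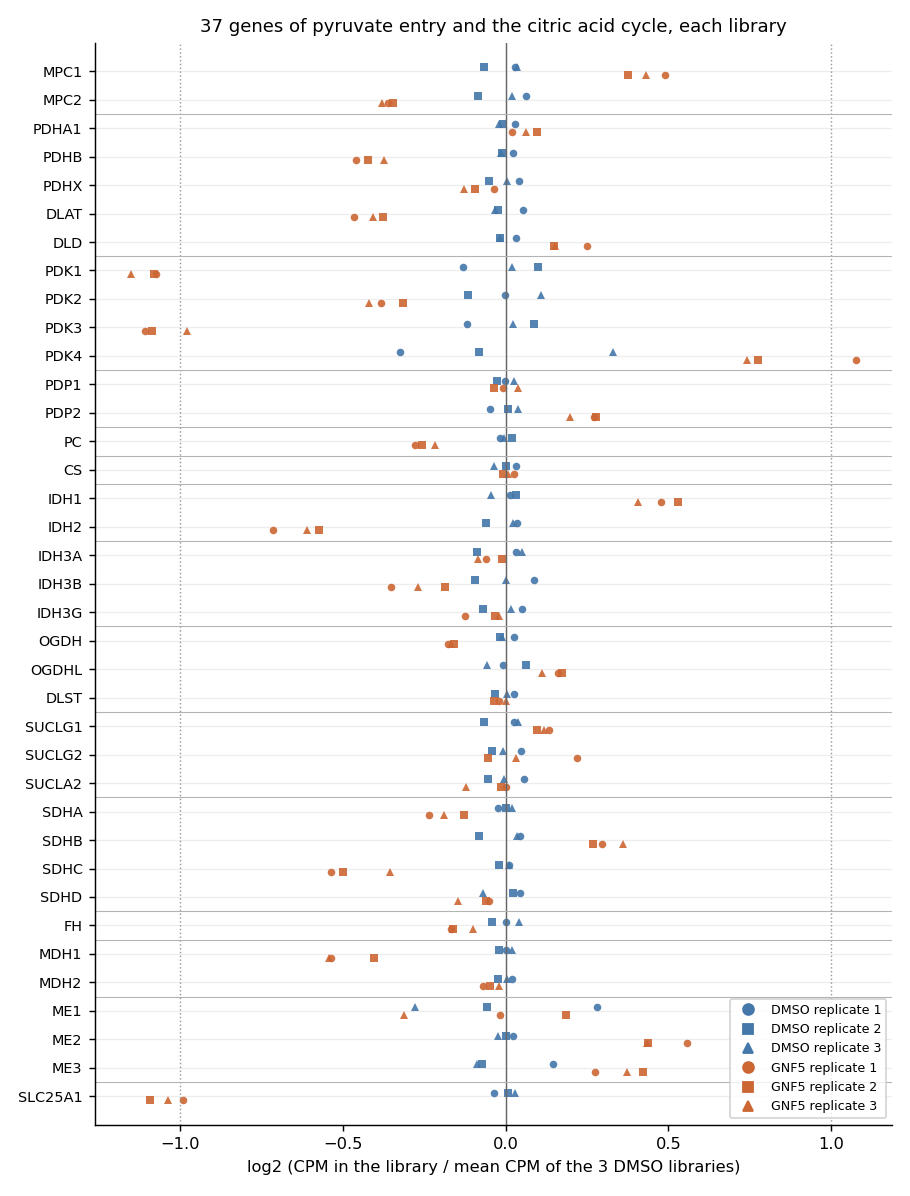
Level of each of the 37 genes in each library, as log2 of its CPM over the mean CPM of the 3 DMSO libraries, ordered from pyruvate entry to citrate export. Lines separate the steps, dotted lines mark 2-fold. The 3 GNF5 libraries lie clear of the DMSO libraries on the low side for PDK1, PDK3 and SLC25A1, and for 25 of the 37 genes the groups do not overlap.

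For 25 of the 37 genes (67.6%) the 3 GNF5 values lay wholly on one side of the 3 DMSO values, as they did for 65.9% of all genes tested. The plot of every library shows that the spread within a group was small beside the changes of PDK1, PDK3 and SLC25A1, while for CS, DLST and MDH2 the groups overlapped. Against a 1.5-fold change rather than none, edgeR called 0 of the 37 genes higher (5.98% of all genes) and 3 lower (7.52% of all genes), again PDK1, PDK3 and SLC25A1.

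The promoters of these 3 genes, and of PDK4, the member with the largest called rise, are shown because these 4 genes had the largest changes of the 37. PDK1 and PDK4 were taken by rule, and PDK3 and SLC25A1 were added after their values were seen. Each sequence is the 250 bases before the RefSeq gene start (GRCh38.p14), written along the gene's strand, with capitals for a match to a searched motif. They lie at chr2:172555123-172555372 (PDK1, plus strand), chrX:24465036-24465285 (PDK3, plus strand), chr22:19178737-19178986 (SLC25A1, minus strand) and chr7:95596517-95596766 (PDK4, minus strand).
PDK1: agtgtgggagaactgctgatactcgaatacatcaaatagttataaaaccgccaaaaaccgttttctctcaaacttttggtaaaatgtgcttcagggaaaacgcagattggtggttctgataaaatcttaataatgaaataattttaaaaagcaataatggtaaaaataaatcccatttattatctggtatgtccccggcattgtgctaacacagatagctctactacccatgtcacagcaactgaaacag
PDK3: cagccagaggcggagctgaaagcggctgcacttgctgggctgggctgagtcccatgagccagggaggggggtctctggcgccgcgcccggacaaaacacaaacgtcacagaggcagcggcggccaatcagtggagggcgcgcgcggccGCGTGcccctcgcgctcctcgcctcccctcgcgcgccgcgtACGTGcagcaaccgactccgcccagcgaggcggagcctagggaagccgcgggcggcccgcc
SLC25A1: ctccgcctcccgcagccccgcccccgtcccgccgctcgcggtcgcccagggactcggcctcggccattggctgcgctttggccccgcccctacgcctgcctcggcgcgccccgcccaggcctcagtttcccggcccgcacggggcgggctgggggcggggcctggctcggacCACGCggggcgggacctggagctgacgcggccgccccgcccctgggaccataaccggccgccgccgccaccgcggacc
PDK4: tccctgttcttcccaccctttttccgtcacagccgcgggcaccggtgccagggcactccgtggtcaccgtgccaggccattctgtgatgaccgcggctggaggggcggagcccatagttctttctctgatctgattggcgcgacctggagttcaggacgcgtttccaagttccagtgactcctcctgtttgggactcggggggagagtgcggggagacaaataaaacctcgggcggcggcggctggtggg

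The motifs searched, on both strands, were the core letters of the hypoxia response element, ACGTG and GCGTG, the E-box CACGTG, which contains ACGTG, the sterol response element TCACNCCAC and the ERR site TNAAGGTCA. The PDK3 window held ACGTG with its first base 61 bases before the start and GCGTG 102 bases before it. In the SLC25A1 window the reverse complement of GCGTG stood 78 bases before the start, and the PDK1 and PDK4 windows held none of the 5 motifs. ACGTG was found in 18.7% of 27305 promoters of this length and in 9 of the 34 member promoters in the table (26.5%), and GCGTG in 31.9% and in 18 of 34 (52.9%). The 27305 were not matched to the 34 in expression or in G and C content, and the difference in these shares was not tested. CACGTG stood in 6.49% of all and in 4 of the 34 (PDHB, PDP2, OGDHL and ME3), and TCACNCCAC (0.875%) and TNAAGGTCA (0.85%) in none of the 34. PDP1, OGDH and SDHC had no entry. These windows follow a single annotated start per gene: 1 of the 9 GENCODE 29 transcripts of PDK1 begins within 100 bases of it, and the median start is 678 bases downstream. For PDK3, SLC25A1 and PDK4, 2 of 4, 2 of 5 and 2 of 5 transcripts begin within that distance. The SLC25A1 and PDK3 windows were rich in G and C (81.6% and 73.6%), against 62.8% for PDK4 and 35.6% for PDK1. A match is a description of the letters and not of a bound factor.

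At the entry of pyruvate the carrier's subunits moved apart. MPC1 (ENSG00000060762, chromosome 6, 166364919 to 166383013, GRCh38) had 57.4, 53.7 and 57.7 CPM in the DMSO libraries and 78.9, 72.9 and 75.8 in the GNF5 libraries. Every GNF5 library was above every DMSO library, and the gene rose by 0.43 ± 0.043 (adjusted p = 6.96e-10). MPC2 (ENSG00000143158, chromosome 1, 167916675 to 167937072), its obligate partner, had 72.1, 65.1 and 70.0 CPM with DMSO and 53.7, 54.4 and 53.1 with GNF5. Here every GNF5 library was the lower, and the gene fell (-0.36 ± 0.043, adjusted p = 2.75e-08). Divided by exon length, MPC1 made up 58.2 ± 0.49% of the summed MPC1 and MPC2 level with DMSO and 70.7 ± 0.97% with GNF5 (SD, n = 3; exact two-sided permutation p = 0.1, the smallest that 3 against 3 can give).

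In the pyruvate dehydrogenase complex, 2 subunits fell, 1 rose and 2 did not pass. DLAT (ENSG00000150768, chromosome 11, 112025408 to 112064404), the E2 core that carries the acetyl group, had 177.3, 168.1 and 166.9 CPM with DMSO and 123.8, 131.5 and 128.7 with GNF5. PDHB (ENSG00000168291, chromosome 3, 58427630 to 58433857), the beta subunit of the decarboxylase E1, had 45.8, 44.7 and 44.7 CPM with DMSO and 32.7, 33.7 and 34.8 with GNF5. Both genes were lower in every GNF5 library, with changes of -0.42 ± 0.036 for DLAT (adjusted p = 4.7e-11) and -0.42 ± 0.045 for PDHB (4.39e-09). DLD, the E3 that re-oxidises lipoamide and also serves the oxoglutarate and branched-chain complexes, rose from 119.4 ± 2.5 to 135.7 ± 5.4 CPM (0.19 ± 0.036, adjusted p = 6.64e-05). PDHA1, the alpha subunit of E1 and the target of the kinases, was at 109.7 ± 2.0 CPM with DMSO and 114.4 ± 3.0 with GNF5, and its groups overlapped (0.06 ± 0.036, adjusted p = 0.151). PDHX, which anchors E3 to the core, was at 75.8 ± 2.4 and 71.5 ± 2.3 CPM (-0.08 ± 0.040, adjusted p = 0.0713). PDHX passed without DMSO replicate 2 (adjusted p = 0.0204) or GNF5 replicate 1 (0.0278), with upper-quartile factors (0.0169) and when genes under a mean CPM of 1 were left out (0.0343). Its alternatives gave 0.0169 to 1.

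Of the pyruvate dehydrogenase kinases 3 fell and the least abundant rose. PDK1 (ENSG00000152256, chromosome 2, 172555373 to 172608669), known as a target of hypoxia signalling, had 46.2, 54.3 and 51.3 CPM with DMSO and 24.0, 24.0 and 22.8 with GNF5. The highest GNF5 value was far under the lowest DMSO value, and the fall was 2.14-fold (-1.10 ± 0.054, adjusted p = 1.68e-16). PDK3 (ENSG00000067992, chromosome X, 24465270 to 24550466) had 82.5, 95.2 and 91.0 CPM with DMSO and 41.6, 42.2 and 45.4 with GNF5. It too was lower in every treated library, by 2.08-fold (-1.06 ± 0.049, adjusted p = 4.0e-17). PDK2 (ENSG00000005882, chromosome 17, 50094737 to 50112152), a widely expressed kinase, had 19.6, 18.2 and 21.2 CPM with DMSO and 15.1, 15.8 and 14.7 with GNF5. Its groups did not overlap and the fall was smaller (-0.37 ± 0.066, adjusted p = 1.77e-05). PDK4 (ENSG00000004799, chromosome 7, 95583499 to 95596516), which fasting and fatty acids are known to induce, had 1.26, 1.49 and 1.98 CPM with DMSO and 3.32, 2.69 and 2.63 with GNF5. It was low in every library, with 733 counts in all 6 together, and rose by 0.88 ± 0.168 (adjusted p = 4.87e-05).

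**Figure D2:**
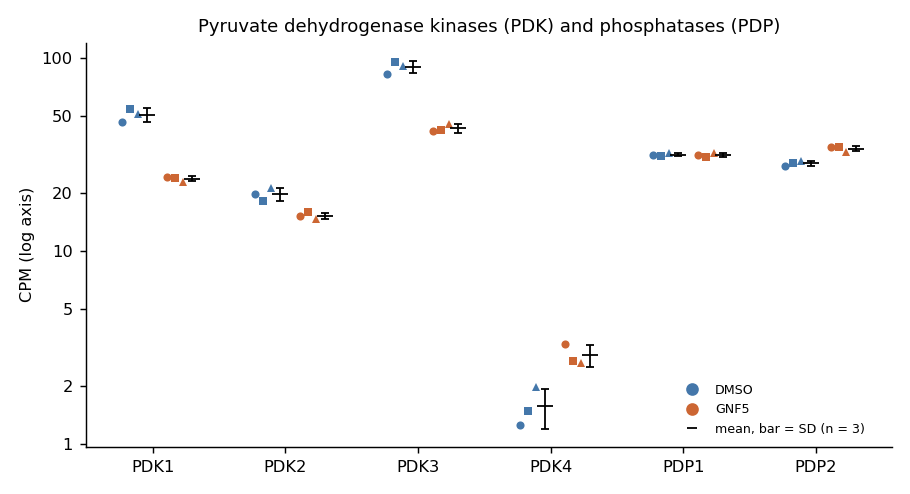
CPM of the 4 pyruvate dehydrogenase kinases and the 2 phosphatases in each library on a log axis, DMSO in blue and GNF5 in orange, with the mean and SD of 3 libraries in black. PDK1, PDK2 and PDK3 are lower with GNF5 (PDK1 from 50.6 to 23.6 CPM), PDK4 is higher at a low level, PDP1 is level and PDP2 is slightly higher.

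Of the phosphatases, which oppose these kinases, 1 rose and 1 did not pass. PDP1 was at 31.5 ± 0.56 CPM with DMSO and 31.5 ± 0.79 with GNF5 (-0.0013 ± 0.048, adjusted p = 0.984). PDP2 had 27.6, 28.6 and 29.3 CPM with DMSO and 34.4, 34.5 and 32.6 with GNF5, and rose (0.25 ± 0.049, adjusted p = 6.6e-05). Per kb of exon, the 4 kinases summed to 13.1, 14.4 and 14.5 CPM in the DMSO libraries and to 8.19, 8.22 and 8.17 in the GNF5 libraries. The same sum for the phosphatases was 8.97, 9.0 and 9.28 against 9.77, 9.68 and 9.74. The kinase sum was lower and the phosphatase sum higher in every GNF5 library (exact two-sided permutation p = 0.1 for each sum). Which sum was the larger with GNF5 depended on the division by length: undivided, the kinases summed to 149.6 to 169.2 CPM with DMSO and 84.0 to 85.6 with GNF5, above the phosphatases in every library (59.0 to 61.3 and 64.9 to 65.7 CPM). Within the kinases, PDK3 kept the largest share per length in each library, at 47.4 ± 1.5% with DMSO and 38.9 ± 2.0% with GNF5. The share of PDK2 was 25.8 ± 2.3% and 33.9 ± 1.2%, that of PDK1 24.4 ± 0.96% and 19.4 ± 0.52%, and that of PDK4 2.47 ± 0.47% and 7.74 ± 1.0%. The exon models of PDK1 and PDK3 are long (14845 and 13506 bases, all annotated exons summed), which lowers their level per length.

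PC (ENSG00000173599, chromosome 11, 66848417 to 66958386), the carboxylase that refills oxaloacetate from pyruvate, had 31.6, 32.4 and 31.8 CPM with DMSO and 26.3, 26.8 and 27.5 with GNF5. The groups did not overlap, and it fell (-0.25 ± 0.049, adjusted p = 5.65e-05). Of 5 genes listed for the making of pyruvate and its other fates, 2 rose and 3 fell, and the fall of LDHA, which makes lactate from pyruvate, was -2.54 ± 0.038, that of PKM, which makes pyruvate, -1.58 ± 0.035. GPT2, the mitochondrial alanine aminotransferase, rose by 0.31 ± 0.036.

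**Figure D3:**
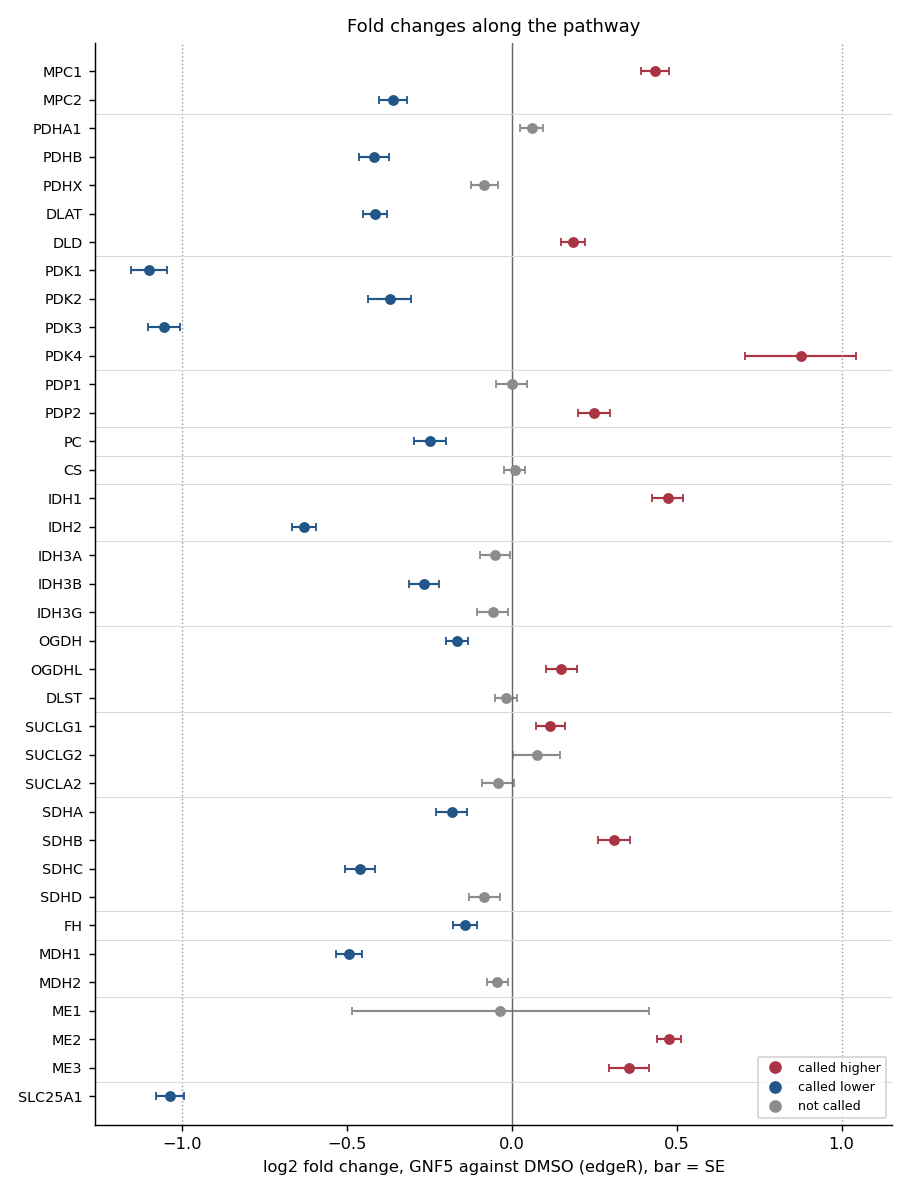
Log2 fold change of GNF5 against DMSO for the 37 genes with its SE from edgeR, in pathway order, coloured by call. Dotted lines mark 2-fold. Apart from PDK1, PDK3 and SLC25A1 no called gene passes a dotted line. The genes from CS to MDH2, with IDH1 and MDH1 from outside the mitochondrion among them, lie between -0.63 (IDH2) and 0.47 (IDH1).

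Among 19 genes listed for the steps from citrate synthase to malate dehydrogenase, 4 rose, 7 fell and 8 did not pass. Thus 57.9% were called, against the 61.6% of all genes. The 19 include IDH1 and MDH1, forms outside the mitochondrion, and the NADP-dependent IDH2. These had the largest changes of the 19 (IDH2 -0.63, MDH1 -0.49, IDH1 0.47). The median log2 fold change of the 19 was -0.05, and 13 of them were within 0.25 of no change. How many of all genes were within 0.25 was not counted. The median absolute change was 0.143 for the 19 and 0.336 for all genes. CS (citrate synthase), the entry enzyme, had 337.4, 329.8 and 322.0 CPM with DMSO and 335.9, 327.9 and 331.4 with GNF5. The groups overlapped (0.01 ± 0.032, adjusted p = 0.828), and the sign of this value depended on the scaling. By level per length, IDH2, MDH2, FH and CS led the 37 genes with DMSO, at 111.8, 105.5, 64.8 and 51.5 CPM per kb, and they held the first 4 places with GNF5 as well, with MDH2 (102.2) now above IDH2 (72.2). ME1 (0.057), PDK4 (0.347) and PDK1 (3.41) were the lowest with DMSO.

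The NADP-dependent isocitrate dehydrogenases moved in opposite directions. IDH2 (ENSG00000182054, chromosome 15, 90083045 to 90102477), the mitochondrial enzyme, had 319.2, 299.3 and 316.5 CPM with DMSO and 190.0, 209.8 and 204.2 with GNF5. All GNF5 values were well under the DMSO values, a 1.55-fold fall (-0.63 ± 0.037, adjusted p = 1.01e-14). IDH1 (ENSG00000138413, chromosome 2, 208236229 to 208266074), its counterpart in cytosol and peroxisomes, had 33.8, 34.2 and 32.4 CPM with DMSO and 46.6, 48.4 and 44.3 with GNF5. It was higher in every GNF5 library (0.47 ± 0.047, adjusted p = 8.26e-10). The share of IDH1 in their summed level per length was 6.0 ± 0.32% with DMSO and 12.1 ± 0.65% with GNF5. Of the NAD-dependent enzyme that works in the cycle itself, IDH3B, a regulatory subunit, fell from 99.0 ± 6.1 to 82.3 ± 4.8 CPM (-0.27 ± 0.045). The catalytic subunit IDH3A (50.4 ± 2.6 and 48.7 ± 1.3 CPM, adjusted p = 0.342) and the other regulatory subunit IDH3G (48.3 ± 2.0 and 46.3 ± 1.8 CPM, adjusted p = 0.272) did not pass.

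At the next step OGDH, the decarboxylase of the oxoglutarate dehydrogenase complex, fell from 173.0 ± 2.9 to 154.0 ± 1.0 CPM (-0.17 ± 0.033, adjusted p = 6.74e-05). OGDHL, its brain-enriched relative, rose from 35.5 ± 1.5 to 39.4 ± 0.91 CPM (0.15 ± 0.047, adjusted p = 0.00726). That call was lost without DMSO replicate 3 (adjusted p = 0.0686), and over its alternatives the adjusted p ran from 0.00493 to 1, the latter in the test against 1.5-fold. DLST, the E2 of this complex, was at 151.1 ± 2.9 and 149.2 ± 1.9 CPM (-0.02 ± 0.034, adjusted p = 0.667). OGDHL made up 15.7 ± 0.64% of the summed OGDH and OGDHL level per length with DMSO and 18.9 ± 0.34% with GNF5.

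Of the 3 genes of succinyl-CoA ligase, the step that makes GTP or ATP directly, 1 rose. SUCLG1, the alpha subunit common to both forms, rose slightly from 53.4 ± 2.1 to 57.8 ± 0.71 CPM (0.12 ± 0.043, adjusted p = 0.0194). That call was lost without DMSO replicate 2 (adjusted p = 0.148) and with upper-quartile factors (0.0609), over a range of 0.0143 to 1. SUCLG2, which gives the GTP form, was at 14.3 ± 0.45 and 15.0 ± 1.5 CPM, and SUCLA2, which gives the ATP form, at 36.3 ± 1.4 and 35.2 ± 1.6. Neither passed (adjusted p = 0.386 and 0.455), and the shares of the beta subunits overlapped between groups.

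The subunits of succinate dehydrogenase, which is also complex II of the respiratory chain, diverged. SDHB (ENSG00000117118, chromosome 1, 17018722 to 17054032), the iron-sulfur subunit, had 37.0, 33.9 and 36.8 CPM with DMSO and 44.0, 43.2 and 46.1 with GNF5. SDHC (ENSG00000143252, chromosome 1, 161314381 to 161371964), a membrane anchor, had 60.3, 59.1 and 60.3 CPM with DMSO and 41.3, 42.4 and 46.8 with GNF5. SDHB was thus higher and SDHC lower in every treated library, with changes of 0.31 ± 0.048 (adjusted p = 2.07e-06) and -0.46 ± 0.047 (adjusted p = 1.12e-09). SDHA, the flavoprotein, fell from 39.2 ± 0.59 to 34.6 ± 1.3 CPM (-0.18 ± 0.046), and SDHD, the second anchor, did not pass (43.7 ± 1.8 and 41.2 ± 1.5 CPM, adjusted p = 0.12). SDHD passed with upper-quartile factors (adjusted p = 0.0409), and its alternatives gave 0.0409 to 1. SDHA is uncertain, because 4 pseudogene copies named after it held 22760 counts over the 6 libraries against 12278 for the gene itself, and 21.6% of its exon bases are shared with another gene model on the same strand. For SDHD that overlap was 11.4% and for CS 3.44%, and it was 0 for the other 34 genes. Of the 4 assembly factors of this enzyme, 2 rose and 2 fell, with SDHAF4 at 0.45 ± 0.058, SDHAF3 at -0.28 ± 0.043 and SDHAF2 at -0.37 ± 0.091. SDHAF2 shares 44.8% of its exon bases with another model on its strand and is uncertain.

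FH, fumarase, fell a little, from 138.3 ± 4.0 to 125.3 ± 3.3 CPM (-0.14 ± 0.036, adjusted p = 0.000995). The cytosolic malate dehydrogenase MDH1 (ENSG00000014641, chromosome 2, 63588609 to 63607197), part of the malate-aspartate shuttle, had 115.8, 114.0 and 117.1 CPM with DMSO and 79.8, 87.3 and 79.4 with GNF5. It was lower in every GNF5 library (-0.49 ± 0.039, adjusted p = 8.34e-12). MDH2, the mitochondrial enzyme that closes the cycle, was at 384.0 ± 6.0 and 372.2 ± 6.1 CPM, with overlapping groups (-0.05 ± 0.031, adjusted p = 0.217). The share of MDH1 in their summed level per length was 18.0 ± 0.17% and 13.9 ± 0.69%.

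Malic enzymes, which make pyruvate from malate, rose where they were expressed. ME2 (ENSG00000082212, chromosome 18, 50879080 to 50954257), the mitochondrial NAD-dependent form, had 139.1, 137.0 and 134.6 CPM with DMSO and 201.4, 185.2 and 184.9 with GNF5. ME3 (ENSG00000151376, chromosome 11, 86441108 to 86672636), the mitochondrial NADP form, had 23.7, 20.3 and 20.1 CPM with DMSO and 25.8, 28.6 and 27.7 with GNF5. For both genes all GNF5 libraries lay above the DMSO libraries, with rises of 0.48 ± 0.037 (adjusted p = 3.84e-12) and 0.36 ± 0.061 (adjusted p = 1.04e-05). ME1, the cytosolic form, was near silent with 62 counts in the 6 libraries (0.189 ± 0.038 and 0.185 ± 0.031 CPM), and no difference was detectable at this depth (-0.04 ± 0.451, adjusted p = 0.952). ME2 supplied 60.6 ± 1.9% of the summed level per length with DMSO and 62.5 ± 2.3% with GNF5, and its shares overlapped. The exon model of ME2 is long (15897 bases against 3838 for ME3), which lowers its share per length. Undivided, ME2 averaged 136.9 CPM with DMSO and 190.5 with GNF5, and ME3 21.4 and 27.4.

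**Figure D4:**
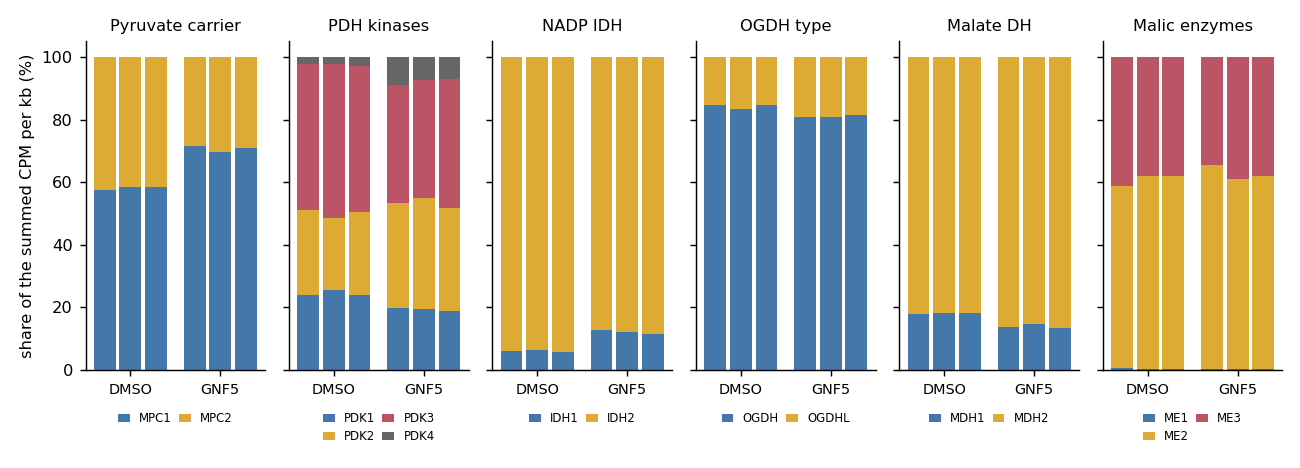
Share of each paralog in the summed CPM per kb of exon of its family, 1 bar per library, 3 DMSO bars then 3 GNF5 bars in each panel. MPC1 goes from 58.2% to 70.7%, IDH1 from 6.0% to 12.1% and MDH1 from 18.0% to 13.9%, while the ME2 and ME3 shares overlap between groups and ME1 is at most 0.46% in every library.

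Citrate leaves the mitochondrion through SLC25A1 (ENSG00000100075, chromosome 22, 19175581 to 19178739). It had 86.5, 89.1 and 90.5 CPM with DMSO and 44.6, 41.7 and 43.2 with GNF5. The groups were far apart, and the fall was 2.05-fold (-1.04 ± 0.041, adjusted p = 1.72e-18). In the list of genes that use citrate or acetate, 2 of 5 genes rose and 3 fell. ACLY, which splits exported citrate to acetyl-CoA in the cytosol, fell (-0.87 ± 0.032), as did ACSS2, which makes acetyl-CoA from acetate there (-0.85 ± 0.057). ACSS1, the mitochondrial enzyme for the same reaction, rose from 11.5 ± 0.57 to 30.9 ± 1.5 CPM (1.42 ± 0.061).

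Over the 8 families of paralogs or partners, 19 shares were compared, and 15 of them did not overlap between the groups. Each of these reached p = 0.1, the smallest value of the exact permutation test, or 0.127 after Benjamini-Hochberg adjustment over the 19, so no share could pass a threshold of 0.05. Shares in a family sum to 100%, so they are not independent of each other. In a pair, the shares mirror each other and both were counted. For the levels of single genes, the groups did not overlap for 65.9% of all genes tested.

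Genes that serve these enzymes were given by lists. Of 15 genes for lipoate, iron-sulfur and thiamine supply, 3 rose and 8 fell (median -0.18). Lipoate is the arm on which DLAT and DLST carry their substrates, and LIPT2, which starts its synthesis, fell from 4.77 ± 0.41 to 1.78 ± 0.18 CPM (-1.42 ± 0.133). The iron-sulfur assembly genes IBA57 and GLRX5 fell (-0.71 ± 0.055 and -0.54 ± 0.044). Of the 5 tested genes of the sister dehydrogenases for branched-chain and 2-oxoadipic acids, 3 fell and 0 rose, with BCKDHB at -0.60 ± 0.049, DHTKD1 at -0.25 ± 0.039 and BCKDK at -0.13 ± 0.047.

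Of 7 mitochondrial carriers of acids, 2 rose and 5 fell (median -0.33). SLC25A13, an aspartate-glutamate exchanger of the malate-aspartate shuttle, fell from 143.4 ± 4.5 to 103.4 ± 1.2 CPM (-0.47 ± 0.035). The oxoglutarate-malate carrier SLC25A11 of the same shuttle fell (-0.45 ± 0.045), and so did the dicarboxylate carrier SLC25A10 (-0.62 ± 0.071), though 46.6% of its exon bases lie in another model on its strand. Named after their values were seen, SLC25A12, the other aspartate-glutamate exchanger of the shuttle, rose (0.32 ± 0.070), and of its aminotransferases GOT1 rose (0.34 ± 0.038) and GOT2 fell (-0.14 ± 0.040). Of 11 tested genes for the entry of amino acids and propionate and the exit of phosphoenolpyruvate, 5 rose and 4 fell. PCK2, which draws oxaloacetate off as phosphoenolpyruvate in the mitochondrion, rose by 1.37 ± 0.038. On the route from propionate to succinyl-CoA, PCCA, a subunit of the carboxylase, fell from 224.6 ± 4.5 to 113.2 ± 2.6 CPM (-0.99 ± 0.034), and MMUT, the mutase, rose (0.43 ± 0.040). These lists were read beside the 61.6% of all genes called.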

How the data were processed

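The deposited files hold raw counts per gene, 1 library per file. Per the file headers, the authors made these counts with featureCounts 1.6.1 from paired reads, by exon and gene, with the reverse-strand setting and Ensembl 101 models of GRCh38. The command sets no option to keep multi-mapped reads or reads over several genes, so genes with close copies may be undercounted. GRCh37 and HTSeq, which the submitters' processing notes list beside STAR, Trim Galore and DESeq2, differ from the headers, which were followed. The exon length in the deposited files, a further column (other unit) from the gene models, was used for CPM per kb.

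Symbols came from a gene name table (60401 of 60671 IDs matched). edgeR 4.0.16 (R 4.3.3) compared 3 GNF5 with 3 DMSO libraries by its quasi-likelihood test (robust, TMM, default filter, 20734 genes, Benjamini-Hochberg). The SE is the log2 fold change over the square root of F. No replicate pair matched within counting error (chi-square per degree of freedom from 3.18 to 8.76), so each library counted once. Same-numbered libraries did not deviate together (correlations -0.016, 0.016 and 0.001). A gene with 3 counts lay at 0.0494 to 0.065 CPM, counting error only.

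The test was checked on simulated counts in which few genes changed, by known folds and at a fixed dispersion. In the data 61.6% of the tested genes were called, so that check does not measure the error rate here. Members, lists and tests were chosen with earlier results of these data known. All 37 members are named, with up to 3 called genes of lowest p per related list, at a mean log2 CPM of at least 1; exceptions are marked, and some results are not reported here. Shares and sums used exact permutation tests (SciPy 1.17.1). Promoter sequences are RefSeq's, matched by symbol for 34 genes. Protein sequences were not used here. Alternatives were other scalings (DESeq2 1.42.0 size factors, upper-quartile, total counts), DESeq2's test, limma 3.58.1 voom, a non-robust fit, other filters, a test against 1.5-fold, a replicate block and leaving out each library.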

Additional observations from a re-analysis of the deposited data

How the results depend on the processing

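The 16 alternatives kept the direction of all 25 called genes, and 23 of them stayed called in the 15 alternatives other than the test against a 1.5-fold change. The exceptions, SUCLG1 and OGDHL, are given with their values in the report. Against 1.5-fold, 0 of the 37 genes were called higher and 3 lower, and 1240 and 1560 of all genes, because that test asks for a larger change. Leaving out 1 library gave 9 to 10 higher and 15 to 16 lower genes of the 37, and 5926 to 6200 higher and 5969 to 6212 lower of all. With upper-quartile factors 9 of the 37 were higher and 17 lower, and 6030 of all genes were higher and 6733 lower. With the replicate number as a block the counts were 10 and 15 of the 37, and 6279 and 6196 of all genes. Same-numbered libraries did not deviate together, but whether the numbers pair the libraries is not known. The sign changed for 4 genes that were not called. CS was -0.017 with upper-quartile factors, -0.0031 with the stricter filter, and -0.013 to 0.021 with 1 library left out. PDP1 was 0.0042 with total counts, 0.00043 with no filter, and -0.022 to 0.018 with 1 library left out. SUCLG2 ran from -0.0078 to 0.134 and ME1 from -0.159 to 0.118 with 1 library left out, and the cause was not tested. The stricter filter (mean CPM of at least 1) removed ME1, which has no value there. Depth limits ME1 (62 counts) and PDK4 (733 counts). No share of a paralog changed direction without length division or with 1 library left out.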

Other observations

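Genes for transcription factors and co-activators that are linked to mitochondrial and hypoxia-regulated genes were mostly higher with GNF5. Of 12 on a list, 11 were tested, 9 rose and 1 fell (median log2 fold change 0.24), against 31.0% of all genes called higher. PPARGC1A, which encodes the co-activator PGC-1alpha of mitochondrial genes, had 9.85 ± 1.05 CPM with DMSO and 29.8 ± 1.38 with GNF5 (SD, n = 3), 3.02-fold higher (SE 0.069 on the log2 scale, edgeR, adjusted p = 9.22e-18). PPARA, a nuclear receptor of fatty acid oxidation and a known inducer of PDK4, rose from 10.5 ± 0.53 to 27.9 ± 1.7 CPM (1.41 ± 0.065). PPRC1, a further co-activator of this family, rose by 0.68 ± 0.042. Named after its value was seen, ESRRA, a receptor that works with PGC-1alpha, rose by 0.50 ± 0.041. EPAS1 was too low to test, and HIF1A, also named afterwards, rose by 0.11 ± 0.039. GABPA and NRF1, factors for mitochondrial genes, were named afterwards too. GABPA was the 1 that fell (-0.20 ± 0.0495, edgeR, adjusted p = 0.000871), and NRF1 did not pass (0.05 ± 0.052, adjusted p = 0.467). The list was chosen with earlier results of these data known, and its relation to the 37 genes was not tested.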
